A study of Bos taurus with 36 samples.

Results

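The genes described here are 10 genes that mark the somatic cells of the testis, out of 35092 genes in the count table of the series. They were taken by gene symbol, and each of the 10 matched 1 row of the table. Sertoli cells are represented by SOX9, SOX8, AMH, DMRT1 and DHH, and steroid-producing cells by NR5A1, CYP11A1, CYP17A1, STAR and INSL3. The series holds 36 RNA libraries from the organs of male bovine fetuses at gestation Day 42 and from blood of their recipient heifers. Embryos of one age had gone to recipients at the matching day of the cycle (ET_D7, synchronous) or to recipients further into the cycle (ET_D9, asynchronous). The libraries labelled gonads, with the tissue given as fetal testicle, numbered 9 (4 ET_D7 and 5 ET_D9). Below, gonads and gonad libraries stand for this label only, and whether the tissue was testis was not tested. These 9 libraries were set against 9 heart libraries (5 and 4) and 8 liver libraries (5 and 3), organs that do not contain Sertoli or Leydig cells. The 10 fetuses are numbered by weight, from fetus 1 at 1.253 g to fetus 10 at 1.69 g, and most gave several organs.

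In the fetal testis, Sertoli cells surround the germ cells, and the transcription factors SOX9, SOX8 and DMRT1 set and maintain their identity. They secrete anti-Müllerian hormone, the product of AMH, which makes the Müllerian ducts regress, and desert hedgehog, the product of DHH, which acts on the neighbouring Leydig cells. In Leydig cells the nuclear receptor NR5A1 drives the steroidogenic genes, STAR brings cholesterol into mitochondria, CYP11A1 cleaves its side chain, CYP17A1 leads towards androgens, and INSL3 is the hormone of testis descent. NR5A1 is also active in Sertoli cells and in the adrenal cortex, and STAR and CYP11A1 in the adrenal cortex too.

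Library totals ran from 22762065 to 39649051 counts in the gonads, from 20930367 to 35857434 in the heart and from 18231089 to 34454772 in the liver. Levels are given in CPM, counts scaled by the library total after TMM, a normalization that corrects for the composition of the RNA. A count of 3, the limit that a count of 0 allows, stood for 0.0466 to 0.081 CPM in the gonad libraries, 0.0837 to 0.181 CPM in the heart and 0.0977 to 0.212 CPM in the liver, and such limits cover counting error only. Among all organ values between 1 and 20 counts, 68.1% were even, and whether both reads of a pair were counted is not given in the sources used here, so a count of 2 may be 1 fragment. Mitochondrially encoded genes took 3.31 to 7.23% of the gonad counts, 17.1 to 57.3% of the heart counts and 16.3 to 36.8% of the liver counts. Some markers went against the tissue label. GATA4, a factor that the forming gonad requires, had 0 to 6 counts in the libraries labelled gonads, 5296 to 9073 in the heart and 691 to 2180 in the liver, while PAX2, a factor of the nephron and the nephric duct, had 3979 to 7720 counts there, 0 to 2 in the heart and 0 to 20 in the liver. Both were picked after their values were seen. In the tests below, 4 of the 8 bipotential gonad genes listed with GATA4 were higher than in both organs and 2, GATA4 among them, were lower. WT1, 1 of those 4, had 4024 to 8717 counts in the gonads, 57 to 301 in the heart and 0 to 123 in the liver. Of the 9 nephron progenitor genes listed with PAX2, 7 were higher and 1 lower. The shares over all genes tested were 14.9% and 13.6%. No library was left out on the ground of GATA4 and PAX2, since all 9 shared their pattern.

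The gonad libraries of fetuses 6 and 8 were nearly proportional to each other. Of 11536 genes counted 200 times or more in both, 91.73% lay within 1% of 1 fixed ratio of 1.274, and in the other 143 pairs of libraries of the same kind, apart from 1 pair of livers, at most 8.99% of genes did. The median chi-square of their counts was 0.0004836 of what sampling noise alone gives. The members followed that ratio unevenly. SOX8 (251 and 319 counts), AMH (78 and 100), NR5A1 (39 and 50) and STAR (257 and 327) lay within 2% of it in fetuses 6 and 8. SOX9 did not, with 241 counts in fetus 6 and 98 in fetus 8. The counts of DHH (34), CYP11A1 (36), DMRT1 (5) and INSL3 (4) in fetus 6 were all 0 in fetus 8, and 285 genes in all had 30 or more counts in fetus 6 and 0 in fetus 8. The liver libraries of fetuses 1 and 2 stood in a ratio of 1.055, with 27.14% of genes within 1% of it and a median chi-square of 0.2962 of sampling noise. Over most genes each of these pairs differed by less than sampling noise, and each was counted as 1 sample in every mean ± SD, which leaves n = 8 for the gonads and n = 7 for the liver, while the tests used all libraries and were repeated with each pair counted once.

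**Figure D1:**
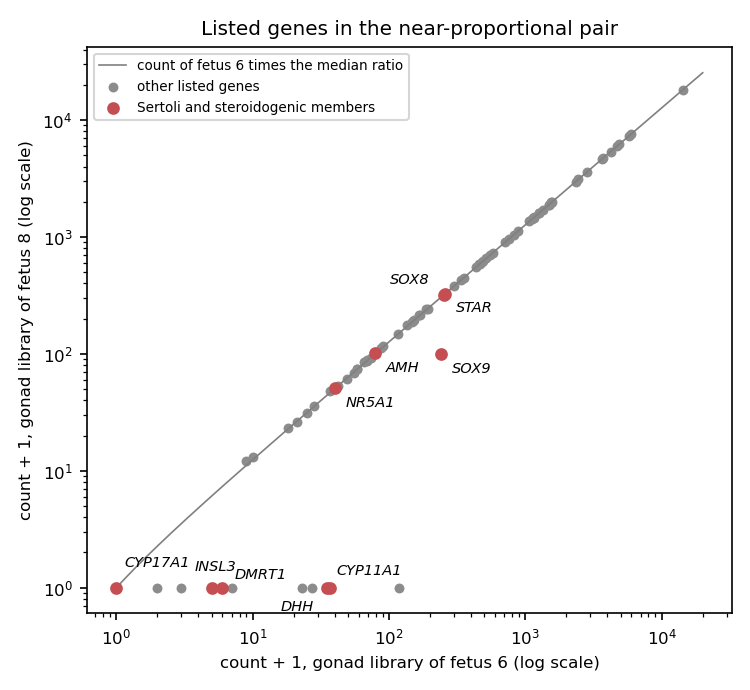
Counts of the listed genes in the gonad libraries of fetuses 6 (x axis) and 8 (y axis), both as count + 1 on log scales, with 1 point per gene and the 10 members in red. The line is the count of fetus 6 times the median ratio of all genes. SOX8, AMH, NR5A1 and STAR lie on the line, SOX9 lies below it, and DHH, CYP11A1, DMRT1 and INSL3 are at 0 in fetus 8.

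Set against heart and liver together, 1 of the 10 members, SOX8, was higher in the libraries labelled gonads than in both organs, and none was lower than in both. Across the 25095 genes tested, 14.9% were higher than in both organs and 13.6% were lower than in both by the same rule, an adjusted p under 0.05 against each organ (edgeR's quasi-likelihood test, Benjamini-Hochberg adjustment over all genes). Against the heart, 2 members were higher (SOX8 and NR5A1) and 4 lower (AMH, DHH, STAR and INSL3), where 23.1% of all genes were higher and 23.5% lower. Against the liver, 3 were higher (SOX9, SOX8 and CYP17A1) and 3 lower (DMRT1, NR5A1 and CYP11A1), where 30.8% of all genes were higher and 33.6% lower. On plain library totals, without TMM, 3 members were higher than in the heart (SOX8, NR5A1 and CYP11A1) and 0 lower, where 50.5% of all genes were higher and 8.32% lower, and 6 were higher than in the liver (SOX9, SOX8, AMH, DHH, CYP17A1 and STAR) and 2 lower (NR5A1 and CYP11A1), where 47.7% were higher and 19.2% lower. With the fetus as a replicate block, 0 members were higher than in the heart and 2 lower (AMH and STAR), where 21% of all genes were higher and 20.7% lower, and 2 were higher than in the liver (SOX9 and SOX8) and 2 lower (NR5A1 and CYP11A1), where 28.6% were higher and 24.9% lower. The median log2 fold change of the 10 members was -0.99 over the heart and 0.77 over the liver, beside 0.08 and 0.00 over all genes tested. SOX8 was also the single member whose lowest gonad library lay above every heart and liver library, as 6.4% of all genes did. With the near-proportional libraries counted once or on plain library totals, SOX8 was again the 1 member higher than in both organs, and with the block 0 were. Of all genes tested, 3646 of 25054 were higher than in both with those libraries counted once. On plain totals 9097 of 25095 were, and with the block 3448 of 25095. In bulk tissue, fewer cells of a type and less RNA per cell cannot be told apart.

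**Figure D2:**
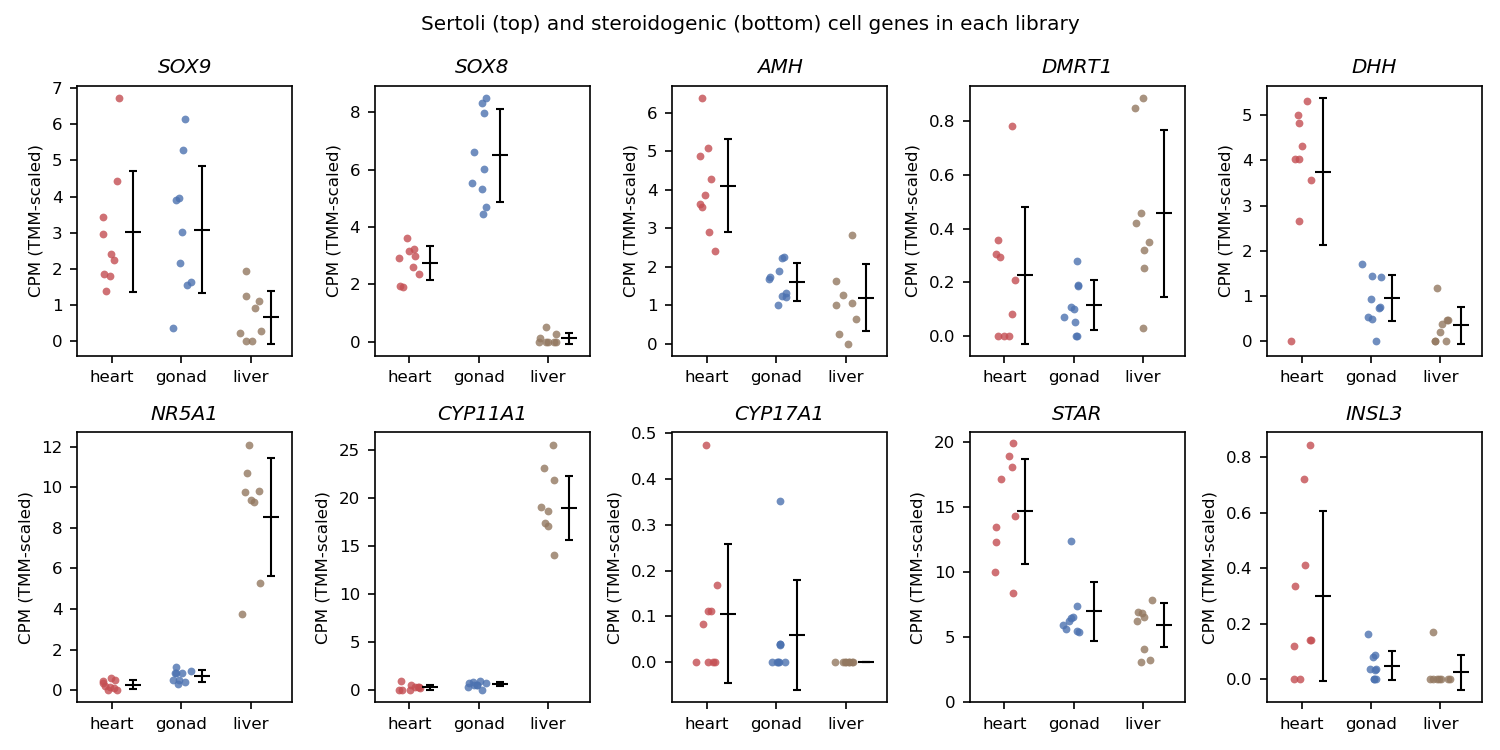
Level of each member in CPM on TMM-scaled totals (y axis, linear, different range in each panel) in the heart, gonad and liver libraries. Each point is 1 library, and the bar beside the points gives the mean ± SD, with near-proportional libraries counted once. The gonad points of SOX8 lie above all others, those of AMH lie below all heart points, and those of NR5A1 and CYP11A1 lie below all liver points.

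SOX8, a paralogue of SOX9 listed here with the Sertoli cell genes, had 224 counts in its lowest gonad library, 319 at the median and 514 in the highest. The heart libraries had 42, 58 and 105 counts in the same order, and the liver libraries 0, 0 and 12, with 5 of 8 at 0. The groups did not overlap on the CPM scale, with 4.45 to 8.49 CPM in the gonads, 1.92 to 3.63 CPM in the heart and at most 0.506 CPM in the liver. Mean levels were 6.5 ± 1.62 CPM for the gonads (SD, n = 8), 2.75 ± 0.592 for the heart (SD, n = 9) and 0.128 ± 0.194 for the liver (SD, n = 7). The log2 difference from the heart was 1.21 (SE 0.47, adjusted p = 0.0344) and that from the liver 5.66 (SE 0.62, adjusted p = 5.55e-09). The call against the heart ended with the fetus as a replicate block (log2 difference 1.10, adjusted p = 0.11) and without the gonad library of fetus 1, 5 or 7 (adjusted p = 0.0552, 0.0555 and 0.0571). With the liver libraries left out of the fit it was 1.28 (SE 0.16, adjusted p = 6.86e-07). The cell type behind the SOX8 counts was not tested.

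SOX9, the factor that commits the supporting cell to the Sertoli fate and that also acts in cartilage and many epithelia, had 14 counts in its lowest gonad library, 167 at the median and 364 in the highest. Heart libraries had 23, 53 and 241 counts and liver libraries 0, 10.5 and 46. The range in the gonads, 0.378 to 6.16 CPM, covered most of that in the heart, 1.38 to 6.72 CPM. Means were 3.08 ± 1.76 CPM for the gonads (SD, n = 8) and 3.03 ± 1.67 for the heart (SD, n = 9), and the log2 difference of 0.04 had a 95% interval from -1.16 to 1.24 (adjusted p = 0.982). Against the liver, at 0.663 ± 0.731 CPM (SD, n = 7), SOX9 was higher by 2.11 on the log2 scale (SE 0.65, adjusted p = 0.00593), although the lowest gonad library fell inside the range of the liver, 0 to 1.94 CPM.

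AMH, the hormone gene that newly formed Sertoli cells switch on, had 55 counts in its lowest gonad library, 78 at the median and 112 in the highest. Counts in the heart were 59, 86 and 151 in this order, and those in the liver 0, 19 and 50. On the CPM scale every gonad library (0.992 to 2.26 CPM) lay below every heart library (2.4 to 6.38 CPM), a separation found for 11.6% of all genes. The mean was 1.6 ± 0.486 CPM for the gonads (SD, n = 8), 4.1 ± 1.21 for the heart (SD, n = 9) and 1.19 ± 0.868 for the liver (SD, n = 7). AMH was thus lower than in the heart, with a log2 difference of -1.35 (SE 0.44, adjusted p = 0.012), and its difference from the liver was 0.57 with an interval from -0.36 to 1.49 (adjusted p = 0.273). On plain library totals the difference from the heart was -0.26 (adjusted p = 0.615) and AMH was higher than in the liver by 1.62 (adjusted p = 0.00308). In the RefSeq annotation of assembly ARS-UCD2.0, AMH lies within 1 kb of the splicing factor gene SF3A2, which had 1107 to 1993 counts in the gonads and 1163 to 2194 in the heart. Any part of such neighbouring reads in the AMH counts was not tested.

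DHH, the hedgehog ligand of Sertoli cells and also of Schwann cells, had 0 to 94 counts in the gonad libraries with a median of 44, against 0 to 151 counts in the heart with a median of 98. In the liver it had 0 to 28 counts. The only gonad library at 0 was that of fetus 8, and the only heart library at 0 was that of fetus 1. The gonad libraries had 0 to 1.7 CPM and the heart libraries 0 to 5.32 CPM, ranges that overlapped. DHH was lower in the gonads (0.958 ± 0.505 CPM, SD, n = 8) than in the heart (3.75 ± 1.62 CPM, SD, n = 9) by a log2 difference of -2.07 (SE 0.75, adjusted p = 0.0249), a call that ended with the replicate block (-1.74, adjusted p = 0.162) and on plain library totals (-1.06, adjusted p = 0.221). Against the liver, at 0.353 ± 0.406 CPM (SD, n = 7), the difference of 1.37 did not pass the threshold (SE 0.79, adjusted p = 0.132), and on plain library totals it did (2.44, adjusted p = 0.0117). DHH lies within 1 kb of LMBR1L, which had 718 to 1487 counts in the gonads and 191 to 675 in the heart.

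DMRT1, a factor that keeps Sertoli cells male and is also expressed in germ cells, was close to the limit of counting in every organ. The gonad libraries had 2, 10, 4, 12, 5, 0, 0, 14 and 6 counts in fetuses 1, 3, 4, 5, 6, 7, 8, 9 and 10. The heart libraries had 0 to 13 counts and the liver libraries 1 to 15. Mean levels were 0.117 ± 0.0924 CPM for the gonads (SD, n = 8), 0.226 ± 0.253 for the heart (SD, n = 9) and 0.456 ± 0.309 for the liver (SD, n = 7), and the ranges overlapped. The difference from the liver was -1.96 (SE 0.87, adjusted p = 0.0487), and it ended with the replicate block (-1.30, adjusted p = 0.349), on plain library totals (-0.91, adjusted p = 0.346) and with the near-proportional libraries counted once (adjusted p = 0.0581). It also ended without the gonad library of fetus 1, 3, 4, 6, 7, 8 or 10 (adjusted p from 0.0502 to 0.0734).

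**Figure D3:**
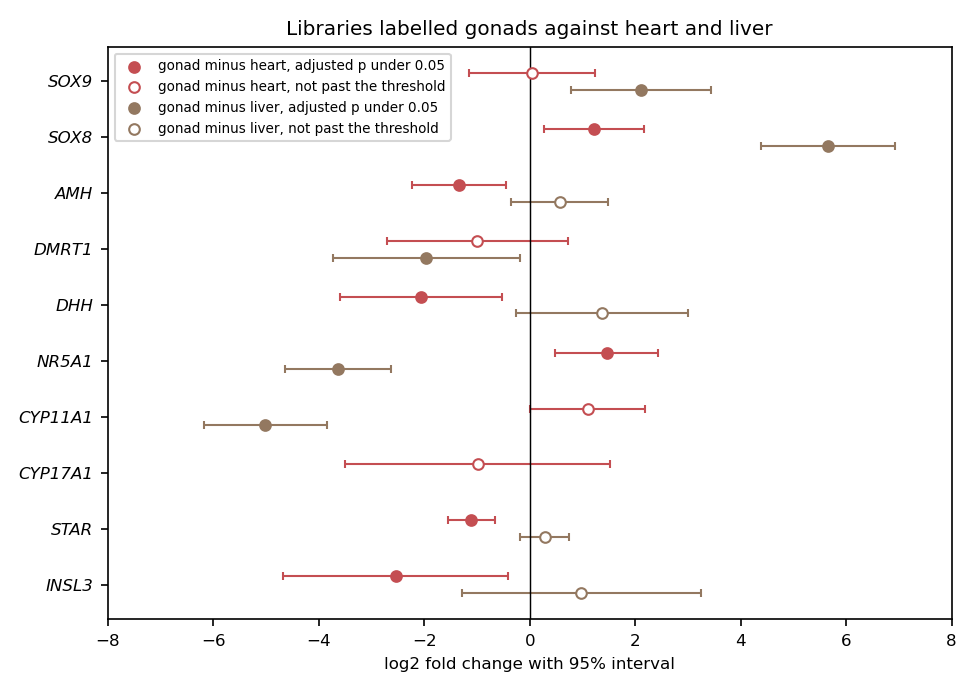
Log2 fold change of each member (x axis) in the libraries labelled gonads over the heart (red) and over the liver (brown), with 95% intervals from edgeR's quasi-likelihood fit. Filled points have an adjusted p under 0.05. SOX8 alone has filled points to the right of 0 for both organs. CYP17A1 has no point for the liver because every liver library was at 0.

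NR5A1, the nuclear receptor of steroidogenic cells, had 19 to 66 counts in the gonads with a median of 31, against 0 to 10 counts in the heart and 75 to 286 in the liver. The gonad libraries (0.295 to 1.12 CPM) overlapped with the heart (0 to 0.604 CPM) and lay below every liver library (3.75 to 12.1 CPM), as 14.7% of all genes did. Mean levels were 0.682 ± 0.294 CPM for the gonads (SD, n = 8), 0.261 ± 0.218 for the heart (SD, n = 9) and 8.54 ± 2.93 for the liver (SD, n = 7). The liver thus carried the highest level of the 3 organs, with a gonad minus liver difference of -3.64 on the log2 scale (SE 0.49, adjusted p = 2.44e-07). The gonads were higher than the heart by 1.46 (SE 0.48, adjusted p = 0.0136), a call that ended with the replicate block (1.47, adjusted p = 0.0631).

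CYP11A1, the enzyme of the first step of steroid synthesis, had 36, 18, 44, 36, 36, 42, 0, 29 and 32 counts in the gonad libraries of fetuses 1, 3, 4, 5, 6, 7, 8, 9 and 10. The heart libraries had 0 to 15 counts, and the liver libraries 199 to 571. Every gonad library was therefore below every liver library, 0 to 0.973 CPM against 14 to 25.5 CPM. The mean was 0.629 ± 0.222 CPM for the gonads (SD, n = 8) and 18.9 ± 3.34 for the liver (SD, n = 7), a log2 difference of -5.02 (SE 0.57, adjusted p = 1.06e-08). Against the heart, at 0.286 ± 0.281 CPM (SD, n = 9), the difference of 1.10 did not pass the threshold (interval 0.00 to 2.19, adjusted p = 0.093). It passed with the near-proportional libraries counted once (1.15, adjusted p = 0.0358), without the gonad library of fetus 8 (1.27, adjusted p = 0.0171) in DESeq2 (1.10, adjusted p = 0.037) and on plain library totals (2.24, adjusted p = 0.000655), but not with the replicate block (adjusted p = 0.0845).

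STAR, the carrier of cholesterol into mitochondria, had 257 to 478 counts in the gonads with a median of 328, and 220 to 428 in the heart with a median of 329. The liver libraries had 58 to 212 counts. On the TMM scale the gonad libraries lay at 5.44 to 12.4 CPM, and fetus 1 alone was above 7.42 CPM. The heart libraries lay at 8.44 to 19.9 CPM and the liver libraries at 3.12 to 7.88 CPM. Mean levels were 7 ± 2.26 CPM for the gonads (SD, n = 8), 14.7 ± 4.03 for the heart (SD, n = 9) and 5.97 ± 1.69 for the liver (SD, n = 7). STAR was lower than in the heart by a log2 difference of -1.11 (SE 0.22, adjusted p = 0.000103), and its difference from the liver was 0.28 (interval -0.18 to 0.74, adjusted p = 0.273). The heart call rested on the scaling. On plain library totals the difference was 0.02 (adjusted p = 0.975), and STAR was then higher than in the liver by 1.31 (adjusted p = 4.62e-06). Plain totals moved the median log2 fold change of genes with 10 or more counts in at least 4 organ libraries from 0.0743 to 1.11 over the heart and from -0.0168 to 1.01 over the liver, and the share of called genes that were higher in the gonads from 49.5 to 85.8% over the heart and from 47.8 to 71.3% over the liver.

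CYP17A1, which opens the path to androgens, had 13 counts in the gonad library of fetus 1, 2 counts in those of fetuses 4, 7 and 9, and 0 in the other 5. The heart libraries had 0 to 8 counts, with 4 of 9 at 0, and all 8 liver libraries were at 0. The gonad mean was 0.0584 ± 0.12 CPM (SD, n = 8), and since every gonad library but that of fetus 1 was under 3 counts, no fold over the liver is given. The fit called CYP17A1 higher than in the liver (adjusted p = 0.0307), but not without the gonad library of fetus 1 (adjusted p = 0.102), with the replicate block (adjusted p = 0.172) or in DESeq2 (adjusted p = 0.297). The difference from the heart, at 0.106 ± 0.152 CPM (SD, n = 9), was -0.99 (interval -3.51 to 1.53, adjusted p = 0.529), and it was -2.57 (adjusted p = 0.0796) without that library.

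INSL3, the Leydig cell hormone, had 0, 2, 2, 0, 4, 8, 0, 4 and 2 counts in the gonad libraries of fetuses 1, 3, 4, 5, 6, 7, 8, 9 and 10. In the heart it had 0 to 20 counts, and 1 liver library had 4, the other 7 being at 0. The gonad mean of 0.0491 ± 0.052 CPM (SD, n = 8) lay at about the level of 3 counts. Against the heart, at 0.301 ± 0.306 CPM (SD, n = 9), the log2 difference was -2.54 (SE 1.04, adjusted p = 0.0461). That call ended in 8 of the 9 fits that left out 1 gonad library, all but the one without fetus 7 (adjusted p from 0.053 to 0.0702), with the replicate block (-2.47, adjusted p = 0.158) and on plain library totals (-1.37, adjusted p = 0.245). Against the liver the difference was 0.97 (interval -1.29 to 3.24, adjusted p = 0.444).

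Of 9 further Sertoli and supporting cell genes, 1 was higher than in both organs (2 with the replicate block or on plain library totals) and 0 were lower than in both. Across all genes tested, 14.9% were higher than in both organs and 13.6% lower. With the block 3448 of 25095 genes were higher than in both and 3018 lower, and on plain totals 9097 were higher and 932 lower. The 1 higher gene was CLDN11, a tight junction protein of Sertoli cells and of myelin, at 9.55 ± 1.94 CPM for the gonads (SD, n = 8), 1.79 ± 3.15 for the heart (SD, n = 9) and 0.279 ± 0.66 for the liver (SD, n = 7). Its log2 difference was 2.39 over the heart (adjusted p = 0.0216) and 5.20 over the liver (adjusted p = 8.69e-05). KITLG, the ligand of KIT, joined it with the block (1.19 and 1.65, adjusted p = 0.0429 and 0.00796) and on plain totals (1.97 and 2.25). On TMM-scaled totals without the block its difference was 0.92 from the heart (adjusted p = 0.0711) and 1.20 from the liver (adjusted p = 0.0181). It was named after its values were seen. PTGDS, a prostaglandin synthase, was lower than in the heart by a log2 difference of -1.03 (adjusted p = 0.00148), and on plain library totals the difference was 0.14 (adjusted p = 0.568) and PTGDS was higher than in the liver by 1.28 (adjusted p = 6.81e-06). CYP26B1, which breaks down retinoic acid, had a difference of 1.20 from the heart (adjusted p = 0.212) and of 0.61 from the liver (adjusted p = 0.507), but it passed over the heart on plain totals (2.21, adjusted p = 0.0203) and over the liver with the block (2.75, adjusted p = 0.0461). FGF9, a growth factor that supports SOX9, was higher than in the liver by 1.21 (adjusted p = 0.00128) and its difference from the heart was -0.69 (adjusted p = 0.0542).

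None of 8 further steroidogenic genes was higher in the gonads than in both organs, and 4 were lower than in both. Of all genes tested, 14.9% were higher than in both and 13.6% lower. CYB5A, the cytochrome that assists CYP17A1, was lower than in the heart by a log2 difference of -1.31 (adjusted p = 4.69e-08; -0.18, adjusted p = 0.199, on plain library totals) and lower than in the liver by -4.16 (adjusted p = 7.17e-18). SCARB1, the receptor for high-density lipoprotein, was lower by -0.54 and -0.69 (adjusted p = 0.000396 and 1.76e-05), but on plain library totals it was higher by 0.54 and 0.33 (adjusted p = 0.000239 and 0.0179). With that scaling 2 of the 8 genes were higher than in both organs and 0 lower than in both. Of all 25095 genes tested, 9097 were then higher than in both and 932 lower. POR, the electron donor of microsomal cytochromes, was lower than in the liver by -1.91 (adjusted p = 5.28e-12), and FDXR, that of mitochondrial cytochromes, was higher than in the heart by 0.49 (adjusted p = 0.00538). On plain totals POR was also higher than in the heart (0.92, adjusted p = 6.25e-06) and FDXR also higher than in the liver (1.05, adjusted p = 8.28e-06). HSD3B1, named after its values were seen, had 22 to 56 counts in the gonads and 617 to 2807 in the liver, a log2 difference of -6.54 (adjusted p = 3.83e-16). HSD17B3, also named after its values were seen, had 17 to 37 counts in the gonads, 0 to 6 in the heart and 0 to 46 in the liver. With the near-proportional libraries counted once it was higher than in the heart by 2.28 (adjusted p = 0.0231). Its difference from the liver was then -0.43 (adjusted p = 0.655). With the replicate block these differences were 2.84 (adjusted p = 0.0298) and 0.53 (adjusted p = 0.697). The summed level of these 8 genes was 149 to 189 CPM in the gonads, 178 to 352 CPM in the heart and 1010 to 1540 CPM in the liver. CYB5A alone had 42.5 to 73.6, 76.1 to 229 and 775 to 1310 CPM in the same order, so it made up most of the liver sum.

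The adrenal cortex shares NR5A1, STAR and CYP11A1 with the testis, and 3 of the 4 markers listed for it alone were near 0 in the gonad libraries. CYP21A2 had at most 4 counts there, CYP11B1 at most 2 and MC2R, the receptor for corticotropin, at most 6. None of the 4 adrenal genes was higher than in both organs, where 14.9% of all genes were. MC2R was lower than in the liver, which had 7 to 29 counts, by a log2 difference of -4.87 (adjusted p = 0.000264). MRAP, which carries MC2R to the cell surface, had 19 to 35 counts and was lower than in the heart by -1.41 (adjusted p = 0.033), a call that ended with the replicate block (-1.09, adjusted p = 0.239) and on plain library totals (-0.37, adjusted p = 0.576). On plain totals MRAP was higher than in the liver (1.67, adjusted p = 0.015), as was CYP21A2 (adjusted p = 0.0206), which was at 0 in every liver library.

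The libraries labelled gonads were also set against further marker lists. All lists were chosen with earlier results of these data known, so they cannot check the label independently. Across all genes tested, 14.9% were higher than in both organs and 13.6% lower than in both. With the replicate block 3448 of 25095 genes were higher than in both and 3018 lower, and on plain totals 9097 were higher and 932 lower. With the near-proportional libraries counted once, 3646 of 25054 were higher and 3240 lower. Of 8 genes of the bipotential gonad and coelomic epithelium, 4 were higher than in both organs and 2 were lower than in both. NR2F2 was higher by 3.26 over the heart and 2.63 over the liver on the log2 scale, CBX2 by 1.12 and 1.51, and WT1 by 4.39 and 5.92, each with an adjusted p of at most 7.01e-09. TCF21 was higher than in the liver by 5.24 and its difference from the heart was 0.55 (adjusted p = 0.174; 1.63, adjusted p = 0.000291, on plain library totals). GATA4 was 1 of the 2 that were lower. LHX9, another factor of the forming gonad, named after its values were seen, had 6 to 15 counts in the gonads, 0 to 4 in the heart and 28 to 153 in the liver. With the near-proportional libraries counted once it was higher than in the heart (1.98, adjusted p = 0.00966) and lower than in the liver (-4.68, adjusted p = 1.81e-07). EMX2, also named after its values were seen, was among the 4 higher genes. It had 28.8 to 38.1 CPM in the gonads, at most 0.593 CPM in the heart and at most 1.27 CPM in the liver. Of 10 germ cell genes, 2 were higher than in both organs, KIT (2.75 and 2.78) and PRDM1 (0.71 and 2.38), with adjusted p of at most 0.0102. Neither DND1 nor MAEL was higher than in either organ, but on plain totals DND1 was higher than in the liver (0.73, adjusted p = 0.0176) and MAEL higher than in the heart (1.36, adjusted p = 0.00492). DND1 was lower than in the heart with the near-proportional libraries counted once (-1.07, adjusted p = 0.00225) and with the replicate block (-1.04, adjusted p = 0.00321). On plain totals that difference was 0.01. DDX4 and TFAP2C were named after their values were seen. DDX4 had 0 to 15 counts in the gonads, 0 to 2 in the heart and 0 to 20 in the liver. With the near-proportional libraries counted once it was higher than in the heart (3.29, adjusted p = 0.0336) but not the liver (-0.78, adjusted p = 0.573). TFAP2C, with 0 to 16 counts in the gonads, 0 to 42 in the heart and 0 in the liver, was then higher than in the liver (adjusted p = 0.0234). The germ cell and pluripotency factors DAZL, POU5F1 and NANOG, named after their values were seen, were at the limit of counting in the gonads. DAZL had 0 to 4 counts in the gonads, 0 to 6 in the heart and 0 in the liver, and was called higher than in the liver on plain totals (adjusted p = 0.0334, against 0.0867 on TMM-scaled totals). POU5F1 had 0 to 14 counts in the gonads and 0 to 97 in the heart, and was lower than in the heart (adjusted p = 0.0383), a call that ended with the replicate block (adjusted p = 1) and on plain totals (adjusted p = 0.131). NANOG, at 0 in all 9 gonad libraries and at most 4 counts in the others, was the 1 gene called lower than in both organs, and 0 were with the block (adjusted p = 0.1 and 0.296) or on plain totals (adjusted p = 0.00559 and 0.082). Of 5 genes of ovarian supporting cells, 2 were higher than in both organs, WNT4 (3.51 and 5.19) and RSPO1 (1.15 and 2.12), with adjusted p of at most 0.0475, while FST and BMP2 were not. RSPO1 did not pass over the heart with the replicate block (0.99, adjusted p = 0.175) or with the near-proportional libraries counted once (1.14, adjusted p = 0.0511), which left 1 of the 5. FOXL2, the factor that defines granulosa cells, named after its values were seen, had 0 counts in 8 of 9 gonad libraries and 2 in the other, 0 to 8 in the heart and 0 to 6 in the liver. It was called lower than in the liver (adjusted p = 0.0145), but not with the block (adjusted p = 0.0774) or on plain totals (adjusted p = 0.0611).

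Most listed genes of nephron progenitors and of the ureteric bud were higher in the libraries labelled gonads than in heart and liver. These lists, too, were chosen with earlier results of these data known. The shares over all genes tested were 14.9% higher than in both organs and 13.6% lower. With the near-proportional libraries counted once, 3646 of 25054 genes were higher than in both and 3240 lower. Of 9 nephron progenitor genes, 7 were higher than in both organs and 1 was lower than in both (6 and 1 with the near-proportional libraries counted once), and the summed level was 450 to 623 CPM in the gonads, 35.9 to 83.8 CPM in the heart and 49.5 to 94.7 CPM in the liver. PAX2 was among the 7. EYA1 was higher by 4.54 over the heart and 6.96 over the liver, SALL1 by 3.79 and 4.84, and PAX8 by 4.11 and 1.86, each with an adjusted p of at most 1.86e-09. Of 8 genes of the ureteric bud and Wolffian duct, 5 were higher than in both organs, among them CALB1 (7.09 and 8.84), RET (6.37 and 7.09) and GATA3 (3.94 and 3.69), each with an adjusted p of at most 5.74e-07. GFRA1 was higher than in the liver (2.46) and its difference from the heart was -0.06 (adjusted p = 0.737; 0.93, adjusted p = 0.000162, on plain library totals). Their summed level was 178 to 235 CPM in the gonads, 55.9 to 91.4 CPM in the heart and 27.2 to 54.6 CPM in the liver. Of 8 podocyte and renal tubule genes, 2 were higher than in both organs, and NPHS1, nephrin of the podocyte, had 120 to 719 counts in the gonads against at most 6 in heart and liver. PODXL was lower than in both organs (on plain library totals it was higher than in the liver, by 0.65), and LRP2 was higher than in the heart and lower than in the liver. Some genes of these lists, such as PAX2, PAX8 and RET, are also expressed in the Wolffian duct, which lies beside the testis, and the tissue behind the values was not tested.

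**Figure D4:**
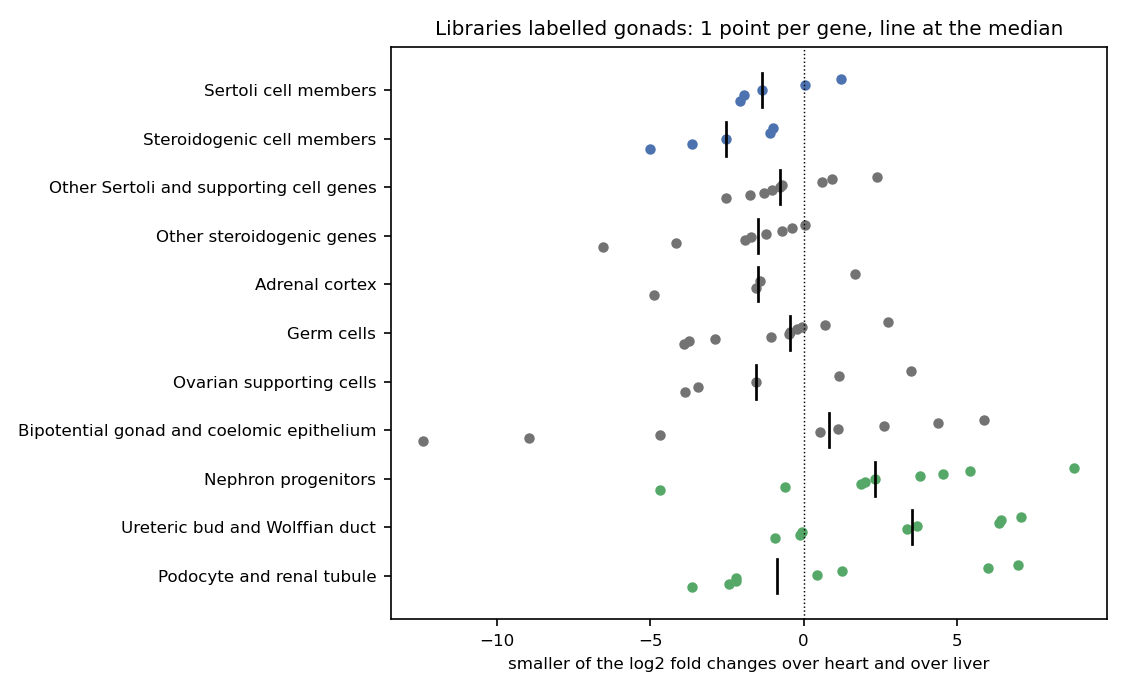
Each point is 1 gene, placed at the smaller of its log2 fold changes over heart and over liver in the libraries labelled gonads (x axis), for the Sertoli and steroidogenic members (blue), other gonadal and adrenal lists (grey) and kidney lists (green), with a line at each median. The median is -1.35 for the Sertoli members, -2.54 for the steroidogenic members, 2.34 for nephron progenitors and 3.54 for the ureteric bud and Wolffian duct, beside -0.66 over all genes tested.

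Markers of the organs used for comparison were low in the gonad libraries. The summed level of 4 hepatocyte genes (APOA1, ALB, AFP and TTR) was 5.17 to 9.04 CPM there and 9510 to 19900 CPM in the liver. That of 5 cardiomyocyte genes (led in the gonads by ACTC1, MYH7, TNNT2 and MYH6) was 13.9 to 25.7 CPM in the gonads, 30800 to 44500 CPM in the heart and 1.5 to 1970 CPM in the liver, where ACTC1, cardiac actin, had from 0 to 31997 counts. The part of such transcripts in the differences from the liver was not tested. XIST, expressed from the inactive X chromosome of females, had at most 8 counts in a gonad library, and genes of the Y chromosome were not analysed here.

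The transfer groups were compared within the gonads over the 17809 genes that reached 10 counts in 4 or more gonad libraries. Of the 10 members, 7 passed this filter, and DMRT1, CYP17A1 and INSL3 did not. None of the 7 differed between ET_D9 and ET_D7 at an adjusted p under 0.05, in a comparison in which 0.354% of all genes did. At an unadjusted p under 0.05, NR5A1 and STAR were among 18.5% of all genes. NR5A1 had 0.295 to 0.837 CPM in ET_D7 and 0.516 to 1.12 CPM in ET_D9, overlapping ranges with a log2 difference of 0.81 (SE 0.34, adjusted p = 0.245). STAR had 6.23 to 12.4 CPM in ET_D7 and 5.44 to 6.59 CPM in ET_D9, with a difference of -0.45 (SE 0.19, adjusted p = 0.237), which was -0.21 (adjusted p = 0.287) without fetus 1. The other 5 members had differences from -0.32 (SOX8) to 0.63 (SOX9), with adjusted p from 0.43 to 0.975. The heaviest ET_D7 fetus weighed 1.37 g and the lightest ET_D9 fetus 1.396 g, so transfer group and fetal weight cannot be told apart.

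Along fetal weight, fitted as a smooth curve in the 9 gonad libraries, none of the 7 members passed an adjusted p of 0.05, nor did any other gene (0% of 17809 in edgeR, against 1358 genes in DESeq2), while 12.6% of genes had an unadjusted p under 0.05. SOX9 was one of these. Its level was 0.378 CPM in fetus 1 and 6.16 CPM in fetus 10, and between them 3.95, 3.01, 2.17, 5.3, 1.56, 1.64 and 3.91 CPM in fetuses 3 to 9. The lightest and heaviest fetuses thus held the lowest and highest values, with no steady order in between. The fitted log2 difference, heaviest minus lightest, was 4.03 (p = 0.000379 in edgeR's quasi-likelihood test, adjusted p = 0.178), and it was 0.97 (adjusted p = 0.33) without fetus 1 and 1.11 (adjusted p = 0.906) as a straight line. It passed the threshold in DESeq2 (4.04, adjusted p = 2.93e-06), without fetus 7 (adjusted p = 0.00949), without fetus 8 (adjusted p = 0.00195) and without both libraries of the near-proportional pair (3.93, adjusted p = 4.14e-08). These fits also called many other genes. Genes called higher and lower in the heaviest fetus numbered 1123 and 235 of 17809 in DESeq2 and 891 and 14 of 17631 without fetus 7. They numbered 1276 and 225 of 17688 without fetus 8, and 1953 and 1129 of 17519 without the near-proportional pair. The values of SOX9 in that pair, 5.3 and 1.64 CPM, departed from the common ratio. STAR had a fitted difference of -1.07 (p = 0.00483 in edgeR's quasi-likelihood test, adjusted p = 0.224), which was -0.22 (adjusted p = 0.805) without fetus 1. STAR passed in DESeq2 (-1.08, adjusted p = 0.0259) and without the near-proportional pair (-1.04, adjusted p = 0.048), fits with the numbers of called genes given above. The other 5 members had fitted differences from -0.89 (SOX8) to 0.90 (DHH), with adjusted p from 0.419 to 0.953.

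**Figure D5:**
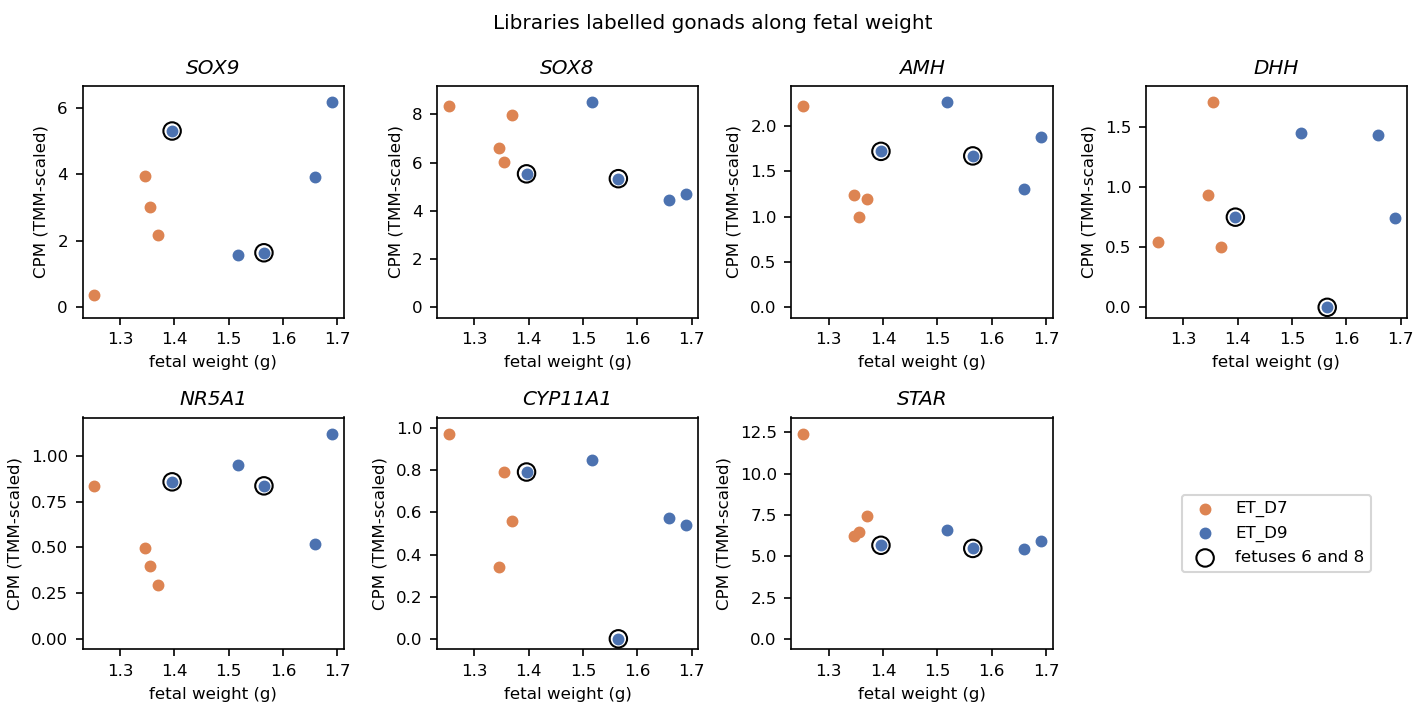
Level of the 7 members that passed the filter (y axis, CPM on TMM-scaled totals, from about 0 in each panel) against fetal weight in grams (x axis) in the 9 libraries labelled gonads, with ET_D7 in orange, ET_D9 in blue and the near-proportional libraries of fetuses 6 and 8 ringed. SOX9 is lowest in fetus 1 (0.378 CPM) and highest in fetus 10 (6.16 CPM), and STAR is highest in fetus 1 (12.4 CPM).

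The genes whose levels followed each member most closely over the 26 organ libraries are given as a description, by Pearson's r of log2 CPM, with points that share fetus, organ and depth. SOX8 was followed by NPTXR (r = 0.98), ULBP21 (0.98) and MAP2K5 (0.97), and SOX9 by CRTAC1 (0.91), PRSS12 (0.86) and XYLT2 (0.85). AMH was followed by ADSS1 (0.92), CD160 (0.89) and DCLK3 (0.89). NR5A1 was followed by BAIAP2L2 (0.93), C6H4orf19 (0.92) and LECT2 (0.92), and CYP11A1 by SOAT2 (0.94), TMEM184A (0.93) and MPO (0.92). STAR was followed by ITPKC (0.94), a gene with no symbol of its own (LOC100847495, 0.94) and TBCB (0.93), and DHH by an unnamed gene (Entrez 112442364, 0.96), LOC507017 (0.87) and ZNF475 (0.84). No gene of the Sertoli and steroidogenic lists was among the 3 closest to any member. The search ran over 17809 genes, of which these lists are a small part, so no conclusion is drawn from this.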

How the data were processed

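Fetal organs and maternal blood were sequenced as paired reads, organs with a stranded poly(A) kit and blood with another kit. The authors deposited raw read counts per gene, named by Entrez identifier. Per the labels and the methods, reads were checked with FastQC (0.11.9), trimmed with Trimmomatic, aligned with STAR (2.7.0b) to ARS-UCD1.3 and counted with featureCounts (Subread 2.0.3); settings for strand, read pairs and multiple hits are not given in the sources used here. Symbols came from RefSeq (ARS-UCD2.0, 31630 of 35092 identifiers matched). No exon lengths were at hand, so levels were not compared between genes.

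Counts of the 26 organ libraries, over genes with at least 1 count, were fitted with edgeR 4.0.16 (R 4.3.3; TMM, quasi-likelihood test, organ as the only term), with Benjamini-Hochberg adjustment and a threshold of 0.05. Within the gonads, transfer group and a natural cubic spline of fetal weight with 3 degrees of freedom were tested over 17809 genes. The fits were run on simulated data with known fold changes. Apart from the changed genes, these data had the same mean profile in all organs, no fetus effect and no near-proportional pair. They therefore cannot check the choice of scaling, the block or the handling of the pair. Each SE was computed as the absolute log2 difference over the square root of the F statistic of its test. Intervals are 95% t intervals from this SE, so SE and interval restate the test. Alternatives were DESeq2 1.42.0 and its size factors, count filters, mitochondrially encoded genes left out, a log2 fold threshold of 1, pairs of organs, each gonad library left out and the fetus as a block, since libraries of 1 fetus come from 1 animal. Near-proportional libraries counted once or left out, and plain library totals, were alternatives chosen after seeing the data. All 10 members were named, and of other lists the 4 genes with the highest mean gonad CPM, with exceptions stated; a few listed genes, and the values that need them, are not reported here. The 3 most similar genes were sought among genes passing the gonad filter (prior count 0.5). Members and lists were chosen with earlier results of these data known. Figures were drawn with matplotlib 3.10.9.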

Additional observations from a re-analysis of the deposited data

Results flagged for a closer look

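In groups of 8 or 9 libraries, single libraries stood apart from the rest of their group (by the gap to the nearest value over the range) in 7 of 29 groups of member values examined, where chance gives about 1 in 20 for normally distributed values. That rate does not hold for counts near 0. In the liver, 7 of 8 libraries were at 0 for INSL3, so the other stands apart by construction, and the values of CYP17A1 and DMRT1 were near the limit of counting too. In the gonads these were fetus 1 for STAR, at 12.4 CPM, and fetus 1 for CYP17A1, at 0.351 CPM. In the heart they were fetus 1 for CYP17A1, at 0.475 CPM, fetus 1 for DHH, at 0 CPM, and fetus 2 for DMRT1, at 0.781 CPM. In the liver they were fetus 8 for DHH, at 1.18 CPM, and fetus 8 for INSL3, at 0.169 CPM.

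Maternal blood, made with another library kit and used in no comparison, held counts of 2 members in every library. STAR had a median of 51 counts (17 to 97, n = 10) and AMH a median of 15 counts (8 to 24, n = 10), both above the limit of 3 counts. SOX9 and CYP11A1 were at 0 in all 10 blood libraries.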

How the results depend on the processing

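The libraries labelled gonads hold few counts of DMRT1, CYP17A1 and INSL3. The calls given above for these genes rested on few counts, and each ended in some of the alternative fits. How small a difference could be found in them at this depth was not tested. Genes higher and lower than in the heart numbered 5788 and 5898, and 12672 and 2089 on plain library totals, or 3530 and 3863 with a log2 change above 1. Genes higher and lower than in the liver numbered 7718 and 8435, and 11960 and 4810 on plain totals. Genes with every gonad library above every heart and liver library numbered 1607, and 5177 on plain totals. With the replicate block, which pairs the organs of 1 fetus, 0 members were higher than in both organs in place of 1, and leaving out 1 gonad library gave 0 to 1. Beside the calls named above, the block changed no other call of a member.

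Between transfer groups 63 genes were called, and 6 with DESeq2 size factors, 940 in DESeq2, 3 with a filter of 1 count, 6 without mitochondrially encoded genes, 2 with the near-proportional libraries counted once and 0 to 386 with 1 library left out. Along weight, 0 genes were called (2241 at an unadjusted p under 0.05), and 1358 in DESeq2, 3082 without fetuses 6 and 8 and 0 to 1501 with 1 library left out. No paired analysis was possible because the transfer groups share no fetus.

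Members that passed no threshold changed sign. On plain totals the difference from the heart was 0.09 for CYP17A1 and 0.19 for DMRT1, and for STAR, lower by the TMM fit, it was 0.02. With 1 library left out, SOX9 over the heart ran from -0.15 to 0.19. Between transfer groups CYP11A1 ran from -0.47 to 0.11 and DHH from -0.30 to 0.42, and DHH was 0.15 with the pair counted once. Along weight AMH ran from -0.74 to 0.63, NR5A1 from -0.65 to 1.18, CYP11A1 from -0.96 to 0.58 and DHH from -0.10 to 2.09, AMH was 0.17 as a straight line, and NR5A1 was -0.69 as a line with transfer group. The cause of these changes was not tested.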
